A study of Homo sapiens with 4 samples.

Results

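The genes described are 8 members of the machinery that starts, carries out or restrains apoptosis: the caspases CASP6, CASP8, CASP9 and CASP10, the caspase-8-like regulator CFLAR, and the inhibitor of apoptosis (IAP) genes XIAP, BIRC2 and BIRC3. They were chosen by gene name and are 8 of the 58735 genes of the table, each found once. The RNA came from the Myla line, which was derived from mycosis fungoides, a cancer of skin-homing T cells. All cultures received 10 uL of lentivirus medium in 1 mL. In the shFOXM1 group (2 libraries, genotype given as FOXM1 knockdown) the virus carried short hairpin RNA against FOXM1, which encodes a forkhead factor that drives genes of cell division. In the shControl group (2 libraries, genotype given as WT) it carried a scrambled hairpin. The medium was replaced at 24 h and RNA was taken 72 h later. The labels do not say if one hairpin or more was used against FOXM1.

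Caspases are proteases made as inactive precursors. Death receptors such as FAS recruit the adaptor FADD, which gathers the initiators CASP8 and CASP10. CFLAR, also called c-FLIP, resembles CASP8 but its long form has no working catalytic site, and it competes for the same complex. Stress that acts through mitochondria releases cytochrome c (CYCS), which joins APAF1 in the apoptosome and activates the initiator CASP9. Initiators then activate executioner caspases, and CASP6, grouped with these in many schemes, cuts nuclear lamins. XIAP binds and blocks caspases directly. BIRC2 and BIRC3 (cIAP1 and cIAP2) are ubiquitin ligases that sit with TRAF2 at tumour necrosis factor (TNF) receptors, modify RIPK1 and hold down the kinase MAP3K14. BIRC3 and CFLAR are known targets of the transcription factor NF-kB. In T cells, death by the FAS route helps to end an immune response.

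BIRC2, BIRC3, CFLAR and XIAP were each above both shControl libraries in both shFOXM1 libraries, at 1.67, 1.39, 1.38 and 1.29 times the shControl mean, a side on which 27.3% of the 12033 tested genes lay without overlap. CASP8 and CASP9 overlapped between the groups, and CASP6 and CASP10 were below both shControl libraries, as were 25.9% of tested genes. None of these differences passed the test over all genes (limma, adjusted p from 0.198 to 0.909 for the 7 members tested), in a comparison where 0% of 12033 genes passed it in either direction. At an unadjusted p under 0.05 limma had 1061 genes higher and 1082 lower, and voom on the recovered reads also called 0 after adjustment.

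The upstream sequence of the 4 members that were higher in both shFOXM1 libraries is shown. These members were picked by their levels, and a pair of them are known NF-kB targets. Whether NF-kB had a part in their levels was not tested. Each is the stretch of 250 bases before a RefSeq transcript start (GRCh38.p14, plus strand), and capitals mark matches to the NF-kB consensus of 10 bases on either strand. BIRC3 has 1 annotated window, at chr11:102317234-102317483. BIRC2 has 2 windows, and the one shown is chr11:102346964-102347213. CFLAR has 4, and the one shown is chr2:201118466-201118715. XIAP has 3, and the one shown is chrX:123859458-123859707.
BIRC3: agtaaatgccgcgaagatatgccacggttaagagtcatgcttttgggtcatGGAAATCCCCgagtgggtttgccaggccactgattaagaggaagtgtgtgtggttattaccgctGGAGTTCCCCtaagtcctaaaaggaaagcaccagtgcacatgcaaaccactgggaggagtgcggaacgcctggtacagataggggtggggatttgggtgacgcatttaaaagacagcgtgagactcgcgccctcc
CFLAR: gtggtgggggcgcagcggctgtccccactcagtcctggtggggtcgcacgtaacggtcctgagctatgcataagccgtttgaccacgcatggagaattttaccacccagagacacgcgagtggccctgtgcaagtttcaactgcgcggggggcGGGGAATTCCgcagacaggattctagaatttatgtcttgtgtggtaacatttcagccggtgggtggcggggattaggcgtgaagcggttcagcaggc
BIRC2: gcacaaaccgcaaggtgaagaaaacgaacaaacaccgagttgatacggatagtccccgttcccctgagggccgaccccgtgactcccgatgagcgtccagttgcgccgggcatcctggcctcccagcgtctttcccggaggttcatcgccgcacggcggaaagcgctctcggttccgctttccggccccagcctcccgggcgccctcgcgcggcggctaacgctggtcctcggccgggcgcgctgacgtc
XIAP: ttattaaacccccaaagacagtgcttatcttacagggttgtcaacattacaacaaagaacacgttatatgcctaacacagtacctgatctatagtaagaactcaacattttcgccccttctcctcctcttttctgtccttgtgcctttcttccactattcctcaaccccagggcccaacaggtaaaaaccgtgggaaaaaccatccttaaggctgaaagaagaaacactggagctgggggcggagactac

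BIRC3 held 2 matches, 199 to 190 and 135 to 126 bases upstream of the start, and the CFLAR window shown held 1, 97 to 88 bases upstream. The other windows of CFLAR and every window of BIRC2, XIAP, CASP6, CASP8 and CASP9 held 0. The consensus was present in 9.96% of all 35116 promoter windows of this length. By gene it was present in 2 of the 7 members with windows, beside 11.8% of all 27305 genes. Motifs tied to cell cycle and forkhead factors were sought on either strand. TTTGAA (the CHR element) was found in 1 of the 7 members with windows, CFLAR, beside 16.1% of all 27305 genes. In CFLAR it was in 3 of the 4 windows, against 13.3% of all windows. TAAACA, a forkhead core, was found in 1 CFLAR and 1 CASP8 window, against 11% of all windows, and the CHR variant TTCGAA in 1 CASP8 window, against 1.19%. Matches of different motifs were counted whether or not they overlapped, and a match describes letters in the window, not binding. Windows were matched for 7 members by symbol, and CASP10 is named only.

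The libraries were of like depth. The whole reads behind the values numbered 15017728 and 14680094 in shFOXM1 1 and 2, and 14147084 and 14778639 in shControl 1 and 2. FOXM1 itself was at 9.27 and 5.59 FPKM in shFOXM1 1 and 2, against 26.5 and 27.6 FPKM in shControl 1 and 2, where FPKM are fragments scaled by gene length and by library size. The shFOXM1 values were the lower ones, in the direction of the label (limma, log2 fold change -1.77, adjusted p = 0.173). Of 10 T cell markers 7 were at the tested level, with CD3D between 95.1 and 154 FPKM and ZAP70 between 49.3 and 62.6 FPKM. CD4 was at 0 in every library, LCK reached at most 0.0211 FPKM and CD3E at most 0.138 FPKM. Summed marker levels of other cell types overlapped between the groups: 44.3 and 49.4 FPKM in shFOXM1 against 50.2 and 47.9 FPKM in shControl for B and plasma cells, where MZB1 made up most. The sums were 13.6 and 8.53 against 13 and 9.18 FPKM for 8 monocyte markers, where CSF1R made up most. For 8 fibroblast and endothelial markers they were 48.4 and 20.4 against 27.1 and 25.4 FPKM, mostly from COL3A1. For 8 keratinocyte markers they were 20.8 and 26.7 against 23.5 and 22 FPKM. Under 0.1 FPKM in every library were 7 monocyte, 6 fibroblast and endothelial and 5 keratinocyte markers. Libraries of one group differed from gene to gene with an SD of 0.424 log2 units in shFOXM1 and 0.263 in shControl. In bulk RNA, fewer cells that express a gene and less RNA per cell cannot be told apart.

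**Figure D1:**
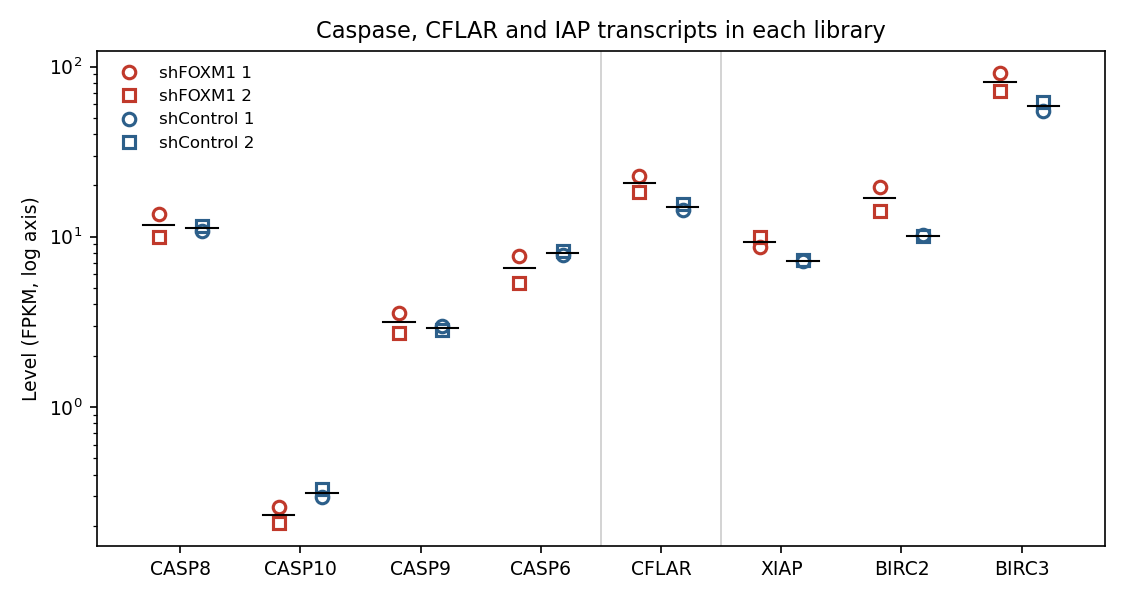
Level of each member in FPKM (vertical log axis) in shFOXM1 libraries (red, left) and shControl libraries (blue, right); circles are replicate 1, squares replicate 2 and black bars group means. BIRC3 was the highest member in all 4 libraries and CASP10 the lowest, and the red points of CFLAR, XIAP, BIRC2 and BIRC3 lie above both blue points.

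Levels differed widely among the members. FPKM is scaled by gene length, so it can be set side by side between genes. In shFOXM1 the order of mean FPKM was BIRC3 at 81.4, CFLAR at 20.6, BIRC2 at 16.9, CASP8 at 11.7, XIAP at 9.32, CASP6 at 6.53, CASP9 at 3.14 and CASP10 at 0.233. In shControl it was BIRC3 at 58.6, CFLAR at 14.9, CASP8 at 11.2, BIRC2 at 10.1, CASP6 at 8.03, XIAP at 7.22, CASP9 at 2.91 and CASP10 at 0.313. By these means BIRC2 stood above CASP8 and XIAP above CASP6 in shFOXM1, and in shControl both pairs were the other way round. Neighbours whose libraries overlapped were CFLAR with BIRC2 and CASP8 with XIAP in shFOXM1, and no neighbouring pair overlapped in shControl. BIRC3 alone made up 54.5 and 54.1% of the summed FPKM of the 8 members in shFOXM1 1 and 2, against 50.6 and 52.7% in shControl 1 and 2. The gene lengths in the table equal all annotated exons joined, which for CFLAR is 22529 bases, while its longest protein-coding transcript has 14672. Scaled to the longest protein-coding transcript instead, a choice made after the values were seen, CFLAR was at rank 2 in shFOXM1 and at rank 3 in shControl, where CASP8 came before it. On that scale CASP8 was above BIRC2 in both groups, with means of 28.9 against 18.9 FPKM in shFOXM1 and 27.6 against 11.3 FPKM in shControl, so the exchange of BIRC2 and CASP8 depends on the length used. XIAP stayed above CASP6 in shFOXM1 and below it in shControl.

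Among the initiators of the death receptor route, CASP8 was at 13.5 and 9.9 FPKM in shFOXM1 1 and 2, against 10.8 and 11.5 FPKM in shControl 1 and 2. One shFOXM1 library lay above both shControl libraries and the other below both. The fitted log2 fold change was 0.05 (95% interval -0.40 to 0.49, limma adjusted p = 0.909). Fold changes from the fit are in log2(FPKM + 1), so those of weakly expressed genes come out too small. Without shFOXM1 1 it was -0.16 and without shFOXM1 2 it was 0.25. CASP8 (ENSG00000064012) lies on the plus strand of chromosome 2 from 201233443 to 201287711 (GRCh38), with 1448 and 1093 reads in shFOXM1 and 1114 and 1232 in shControl.

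CASP10, the other death receptor initiator (ENSG00000003400), was at 0.258 and 0.207 FPKM in shFOXM1 1 and 2, against 0.297 and 0.33 FPKM in shControl 1 and 2. Both shFOXM1 values lay below both shControl values, on 29 and 24 reads against 32 and 37 reads. The exact Poisson 95% intervals, which cover counting error only, were 0.173 to 0.37 and 0.133 to 0.308 FPKM in shFOXM1, against 0.203 to 0.419 and 0.232 to 0.455 FPKM in shControl. These intervals overlap, which is no test of the group difference. CASP10 did not reach 1 FPKM in any library and so was the only member not tested. With no filter its log2 fold change was -0.09 (limma, adjusted p = 0.666 over 25712 genes). At so low a level the 1 FPKM added before the log makes this fold change too small in size. The mean FPKM in shFOXM1 was 0.742 times that in shControl. CASP8 exceeded CASP10 by 52.4 and 47.8 times in shFOXM1 1 and 2, against 36.5 and 34.9 times in shControl 1 and 2. Per longest protein-coding transcript these ratios were 101 and 92.1 in shFOXM1 against 70.4 and 67.4 in shControl.

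CASP9, the initiator of the mitochondrial route (ENSG00000132906, chromosome 1, minus strand, 15490832 to 15526534), was at 3.56 and 2.72 FPKM in shFOXM1 1 and 2, against 2.98 and 2.84 FPKM in shControl 1 and 2. As with CASP8, shFOXM1 1 was above and shFOXM1 2 below both shControl libraries. The log2 fold change was 0.07 (95% interval -0.34 to 0.49, limma adjusted p = 0.837), and it was -0.07 without shFOXM1 1. The values rested on 278 and 218 reads in shFOXM1 against 223 and 221 in shControl.

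CASP6, the caspase that cuts lamins (ENSG00000138794, chromosome 4, minus strand, 109688622 to 109703583), was at 7.68 and 5.37 FPKM in shFOXM1 1 and 2, against 7.83 and 8.23 FPKM in shControl 1 and 2. It was the only tested member below both shControl libraries in both shFOXM1 libraries, and shFOXM1 1 lay just under shControl 1. The log2 fold change was -0.28 (SE 0.18, 95% interval -0.75 to 0.19, limma adjusted p = 0.463). Leaving out shFOXM1 1 gave -0.50 and leaving out shFOXM1 2 gave -0.06. Such a fit has the shControl libraries as its only source of spread. Its 3' end shares 105 bases with MCUB on the other strand, which had 153 and 79 reads in shFOXM1 against 213 and 214 in shControl. CASP6 itself had 221 and 159 reads against 216 and 236, and how reads in the shared bases were assigned is not given in the sources used here.

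CFLAR, the restraint on CASP8 at death receptors (ENSG00000003402, chromosome 2, plus strand, 201116104 to 201176687), was at 22.8 and 18.4 FPKM in shFOXM1 1 and 2, against 14.4 and 15.5 FPKM in shControl 1 and 2. Both shFOXM1 libraries were above both shControl libraries, with means of 20.6 ± 3.06 against 14.9 ± 0.738 FPKM (SD, n = 2 each). The log2 fold change was 0.43 (SE 0.14, 95% interval 0.06 to 0.80, limma adjusted p = 0.241), with 0.58 in shFOXM1 1 and 0.29 in shFOXM1 2 against the shControl mean. Leaving out an shFOXM1 library in limma gives back the difference of the other one, so it is no separate check. It rested on 7589 and 6325 reads against 4612 and 5141. The antisense gene CFLAR-AS1, which shares 777 exon bases with it, had 58 and 63 reads in shFOXM1 against 32 and 32 in shControl. Without strand information reads from the pair cannot be told apart, though the antisense gene's reads were few beside those of CFLAR.

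CFLAR, CASP10 and CASP8 lie one after the other on the same strand, with gaps of 6.19 kb between CFLAR and CASP10 and 4.04 kb between CASP10 and CASP8. Between the groups they differed: CFLAR was higher in both shFOXM1 libraries, CASP10 lower on few reads and CASP8 overlapping. Within each group all of them ordered the libraries alike, with shFOXM1 1 above shFOXM1 2 and shControl 2 above shControl 1. Within a library CFLAR was 1.68 and 1.86 times CASP8 in shFOXM1 1 and 2, against 1.33 and 1.34 times in shControl 1 and 2. Per longest protein-coding transcript the same ratios were 1.05 and 1.16 in shFOXM1 against 0.827 and 0.833 in shControl, so whether CFLAR or CASP8 was the higher in shControl depends on the length used. The shFOXM1 ratios were above both shControl ratios. The length used scales this ratio alike in every library, so it could not change that order. With 2 against 2 the smallest exact two-sided permutation p is 0.333, so no p was given for a ratio.

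XIAP, the direct caspase blocker (ENSG00000101966, chromosome X, plus strand, 123859724 to 123913979), was at 8.73 and 9.9 FPKM in shFOXM1 1 and 2, against 7.15 and 7.29 FPKM in shControl 1 and 2. Unlike the other members above shControl, it was higher in shFOXM1 2 than in shFOXM1 1. Means were 9.32 ± 0.831 against 7.22 ± 0.0945 FPKM (SD, n = 2 each), and the log2 fold change was 0.33 (SE 0.12, 95% interval 0.01 to 0.64, limma adjusted p = 0.271). Leaving out shFOXM1 1 gave 0.41 and leaving out shFOXM1 2 gave 0.24. Its values rested on 1166 and 1362 reads against 916 and 970.

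BIRC2, or cIAP1 (ENSG00000110330, chromosome 11, plus strand, 102347211 to 102378670), had the largest fold of the 8 members. It was at 19.7 and 14.2 FPKM in shFOXM1 1 and 2, against 10.2 and 10.1 FPKM in shControl 1 and 2. The shControl libraries were nearly equal and both shFOXM1 libraries stood above them, at 1.94 and 1.4 times the shControl mean. The means were 16.9 ± 3.9 against 10.1 ± 0.0618 FPKM (SD, n = 2 each), with a log2 fold change of 0.67 (SE 0.18, 95% interval 0.21 to 1.13, limma adjusted p = 0.198). Leaving out shFOXM1 1 gave 0.45 and leaving out shFOXM1 2 gave 0.89, both in limma with the spread of the shControl libraries. The fold change of BIRC2 was above that of 97.2% of the tested genes, with 1320 and 978 reads against 654 and 674.

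BIRC3, or cIAP2 (ENSG00000023445, chromosome 11, plus strand, 102317450 to 102339403), was the most abundant member, and its mean level was at or above that of 95.8% of the tested genes. It was at 91.3 and 71.5 FPKM in shFOXM1 1 and 2, against 55 and 62.2 FPKM in shControl 1 and 2. Both shFOXM1 libraries were above both shControl libraries, and the shControl libraries differed by 0.18 on the log2 scale. The means were 81.4 ± 14 against 58.6 ± 5.13 FPKM (SD, n = 2 each), with a log2 fold change of 0.46 (SE 0.16, 95% interval 0.05 to 0.87, limma adjusted p = 0.249). Leaving out shFOXM1 2 gave 0.63 and leaving out shFOXM1 1 gave 0.29. Its values rested on 10162 and 8194 reads against 5866 and 6903.

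BIRC3 and BIRC2 are neighbours on the same strand, 7.81 kb apart, and both were higher in shFOXM1 1 than in shFOXM1 2. BIRC3 exceeded BIRC2 by 4.64 and 5.05 times in shFOXM1 1 and 2, against 5.41 and 6.17 times in shControl 1 and 2. The summed FPKM of XIAP, BIRC2 and BIRC3 was 120 and 95.6 in shFOXM1 against 72.3 and 79.6 in shControl, while that of the 4 caspases was 25 and 18.2 against 21.9 and 22.9. The ratio of these sums was 4.79 and 5.25 in shFOXM1 1 and 2, against 3.29 and 3.47 in shControl 1 and 2. With BIRC3 left out of the sum it was 1.14 and 1.32 against 0.789 and 0.757, and per longest protein-coding transcript 0.654 and 0.755 against 0.465 and 0.443. These ratios were formed after the values were seen and are descriptions.

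**Figure D2:**
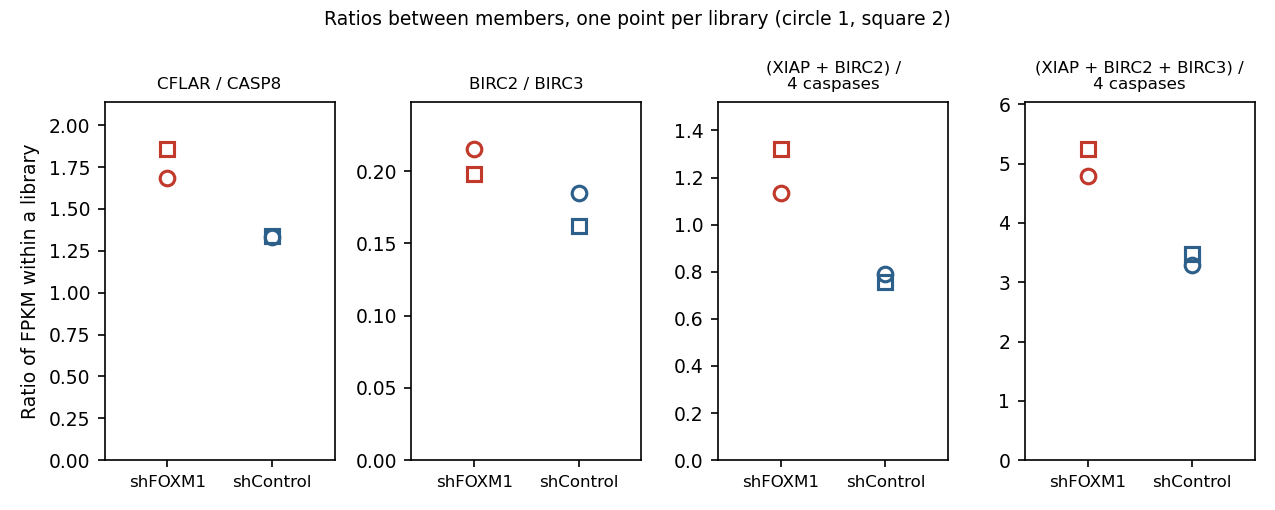
Ratios of FPKM within each library (vertical axes, from 0), shFOXM1 in red on the left and shControl in blue on the right; circles are replicate 1 and squares replicate 2. CFLAR over CASP8 was 1.68 and 1.86 in shFOXM1 against 1.33 and 1.34 in shControl, and the 4 caspases are CASP6, CASP8, CASP9 and CASP10. Per longest protein-coding transcript, not plotted, CFLAR over CASP8 was 1.05 and 1.16 against 0.827 and 0.833.

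Of the 7 members tested, 4 were above and 1 below both shControl libraries, so 5 did not overlap, beside 53.2% of all tested genes. By sign 6 of 7 had a log2 fold change above 0, beside 49.9% of tested genes, and 6 of 7 were higher in shFOXM1 1 than in shFOXM1 2, beside 53.3%. Before adjustment, 4 members had a limma p under 0.05 on the higher side and 0 on the lower side, beside 8.82% and 8.99% of tested genes. The median log2 fold change was 0.33 over the 7 members and 0.00 over all tested genes. With either shControl library left out, 0 members had an unadjusted p under 0.05. The members were chosen with earlier results of these data known, so these counts say nothing particular of the group.

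**Figure D3:**
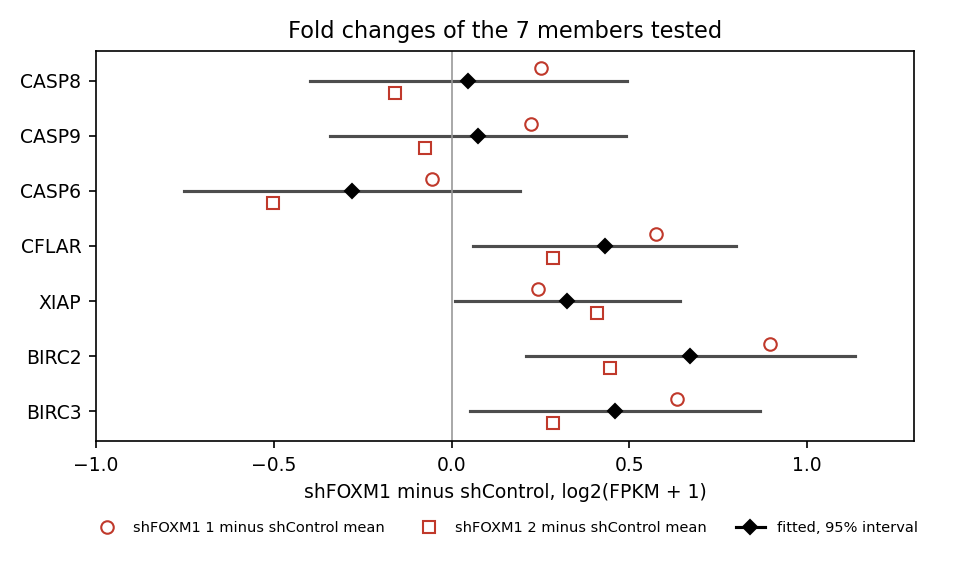
Fitted log2 fold change (black diamonds) with its 95% interval (line) for the 7 tested members, and each shFOXM1 library's own difference from the shControl mean (red circle for 1, square for 2), all in log2(FPKM + 1). The intervals of CFLAR, XIAP, BIRC2 and BIRC3 lie above 0 before adjustment over all genes, from 0.01 at the lower end for XIAP to 1.13 at the upper end for BIRC2.

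The other genes of the pathway were read from lists of 45 genes by role, of which 34 were at the tested level and 0 passed the limma test in either direction. By sign 21 were higher and 13 lower, beside 49.9% of all tested genes higher, with a median log2 fold change of 0.12. Groups did not overlap for 14 of the 34 on the higher side and 10 on the lower side, beside 27.3% and 25.9% of all tested genes. At an unadjusted p under 0.05, 6 were higher and 5 lower, beside 8.82% and 8.99%.

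Among other caspases, 3 of 7 were tested. CASP2, a caspase linked to DNA damage, was at 6.75 and 6.42 FPKM in shFOXM1 1 and 2, against 8.66 and 7.67 FPKM in shControl 1 and 2, a log2 fold change of -0.27 (limma, adjusted p = 0.333). CASP5 and CASP14 were at 0 in every library, and the inflammatory caspases CASP1 and CASP4 stayed under 0.3 FPKM.

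Of other IAP genes, 2 of 4 were tested. BIRC5, or survivin, which acts in cell division, was at 30.7 and 19.8 FPKM in shFOXM1 1 and 2, against 36.4 and 35 FPKM in shControl 1 and 2. Both shFOXM1 libraries were below both shControl libraries (log2 fold change -0.52, limma adjusted p = 0.313), the side opposite to XIAP, BIRC2 and BIRC3. BIRC6, a giant IAP, was at 11.1 and 12.8 FPKM against 10.3 and 11 FPKM. NAIP stayed under 0.11 FPKM and BIRC7 was at 0 throughout. Of the IAP antagonists 1 of 3 was tested: HTRA2, a mitochondrial protease, was at 35.5 and 29.2 FPKM against 28.4 and 29.7 FPKM, with overlapping groups. XAF1, which antagonises XIAP, was at 0 in all 4 libraries. The table lists DIABLO under 2 identifiers, both under 1 FPKM, and its value is uncertain for that reason.

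Upstream of CASP8, 8 of 9 death ligands and receptors were tested and 7 were higher by sign, beside 49.9% of all tested genes. The ligand TNF was at 14.3 and 12.7 FPKM in shFOXM1 1 and 2, against 6.18 and 9.06 FPKM in shControl 1 and 2 (log2 fold change 0.77, limma adjusted p = 0.196). TNFSF10, the ligand TRAIL, was at 51.9 and 37.1 FPKM against 30.7 and 32.3 FPKM. The receptor FAS overlapped, at 53.5 and 38.4 FPKM against 39.8 and 41.9 FPKM, and its ligand FASLG was at 0 in every library. The TNF receptors lay on opposite sides. TNFRSF1A, which carries a death domain, was at 7.14 and 7.6 FPKM in shFOXM1 against 5.77 and 4.62 FPKM in shControl. TNFRSF1B, which binds TRAF2 and has no death domain, was at 19.4 and 12.7 FPKM against 24 and 27.5 FPKM.

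Of the adaptors and kinases 5 of 6 were tested. TRADD, the adaptor of TNFRSF1A, was at 11.7 and 9.08 FPKM in shFOXM1 1 and 2, against 7.74 and 7.21 FPKM in shControl 1 and 2 (log2 fold change 0.42, limma adjusted p = 0.27). FADD, the adaptor of CASP8, was at 8.48 and 10 FPKM against 8.08 and 7.99 FPKM. RIPK1, a kinase that BIRC2 and BIRC3 ubiquitinate, was at 10.1 and 9.57 FPKM against 10.1 and 11.5 FPKM. For necroptosis, the death route that CASP8 restrains, MLKL was at 2.78 and 2.51 FPKM against 3.33 and 3.97 FPKM, and RIPK3 had a value above 0 in 1 library of 4.

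All 8 partners of the cellular IAPs in TNF receptor and NF-kB signalling were tested, and 7 were higher by sign, beside 49.9% of all tested genes. TRAF1 was at 96.8 and 132 FPKM in shFOXM1 1 and 2, against 74.9 and 82.8 FPKM in shControl 1 and 2 (log2 fold change 0.51, limma adjusted p = 0.249). TNFAIP3, or A20, an NF-kB target that dampens the pathway, was at 19.8 and 18.6 FPKM against 13.5 and 12.9 FPKM (log2 fold change 0.51, limma adjusted p = 0.183). TRAF2, which anchors BIRC2 and BIRC3, was at 14.6 and 14.6 FPKM against 13.1 and 14.9 FPKM. TRAF3, which links them to MAP3K14, was at 10.4 and 9.18 FPKM against 9.71 and 10.4 FPKM. MAP3K14 (NIK) was at 52.5 and 58.1 FPKM against 49.8 and 53.9 FPKM, and for all of TRAF2, TRAF3 and MAP3K14 the groups overlapped.

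Both apoptosome genes were on the lower side. APAF1, which assembles with CASP9, was at 11.4 and 11.5 FPKM in shFOXM1 1 and 2, against 14.8 and 15.3 FPKM in shControl 1 and 2 (log2 fold change -0.36, limma adjusted p = 0.219). CYCS was at 51 and 48.2 FPKM against 55.3 and 58.4 FPKM. Of the caspase substrates 5 of 6 were tested and 3 were below both shControl libraries without overlap, as were 25.9% of all tested genes. LMNB1, a lamin of the nuclear envelope that is abundant in dividing cells, was at 59.1 and 54.7 FPKM against 91.5 and 91.7 FPKM (log2 fold change -0.68, limma adjusted p = 0.173). PARP1, a DNA repair enzyme, was at 45 and 49.7 FPKM against 64.4 and 63 FPKM, and DFFB, the nuclease that cuts DNA in apoptosis, at 2.9 and 2.41 FPKM against 3.68 and 3.94 FPKM. DFFA, its inhibitor, overlapped between the groups.

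**Figure D4:**
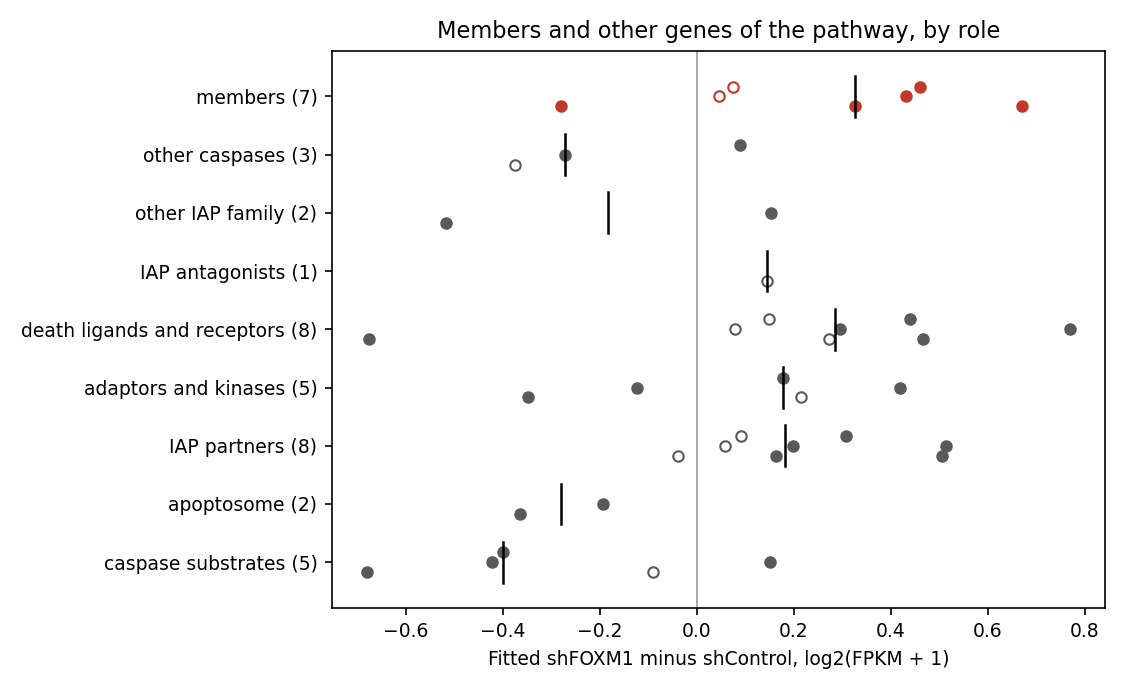
Fitted log2 fold change, shFOXM1 minus shControl in log2(FPKM + 1), of each tested gene by role, members in red and other pathway genes in grey; filled points have groups that do not overlap, vertical bars are list medians and the number tested is in brackets. The medians run from -0.40 for caspase substrates to 0.33 for the 7 members, beside 0.00 over all tested genes.

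By a rule based on distance over the 4 libraries, genes with the pattern most like BIRC2 and BIRC3 were listed. For BIRC2 the nearest were MTF1 (distance 0.053 in log2 units), AL122017.1 (0.065) and USP46-AS1 (0.084). MTF1 was at 9.07 and 6.67 FPKM in shFOXM1 1 and 2, against 4.66 and 4.57 FPKM in shControl 1 and 2. For BIRC3 they were FO538757.1 (0.028), PLXNB2 (0.036) and MRPL27 (0.037), with PLXNB2 at 101 and 78.8 FPKM against 61.6 and 67.3 FPKM. The likeness is a description over 4 libraries.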

How the data were processed

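The authors deposited one table of FPKM for 58735 genes and 4 libraries, per the file headers, with the gene length used. Aligner, counting program and strandedness are not named in any source used. Mouse builds (GRCm38 and mm10) stand in the submitters' processing notes, while the human gene identifiers and coordinates of all 8 members equal GENCODE release 29 (GRCh38). Columns named sh0 were taken as shControl, and sh1 and sh2 as shFOXM1 1 and 2. There were 0 columns of other samples.

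FPKM times gene length gave whole reads, within 0.001 read, for about 99.99% of values in each library. Libraries of one group were not copies of each other (chi-square of reads per degree of freedom 36.5 for shFOXM1 and 3.93 for shControl), so each counted as 1 sample. No label says that replicates came from separate cultures. The p-values thus cover the spread of these samples alone, and it may be technical.

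A gene entered the test if 2 or more libraries reached 1 FPKM, which left 12033. Values of log2(FPKM + 1) were fitted by limma 3.58.1 (R 4.3.3), with a trend, two-sided, with Benjamini-Hochberg adjustment and a threshold of 0.05. The script was tested on simulated data. The members, role lists, named genes (all 8 members, FOXM1, measured genes of the lists, and the 3 nearest in pattern to the 2 members with the largest non-overlapping change) and alternatives were chosen with earlier results of these data known. Sequences are from RefSeq. Some measured genes of the lists are counted but not reported here by name.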

Additional observations from a re-analysis of the deposited data

How the results depend on the processing

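Over the 7 tested members and all alternatives, 75 of 83 fold changes kept both sign and call, 6 became calls and 2 reversed. All 8 exceptions came from leaving out an shFOXM1 library, where the spread is that of the shControl libraries alone. Changing the filter, the replicate block or the trend leaves a fold change as it was, so its sign could not reverse there. Leaving out a library also could not reverse it for members whose groups do not overlap. With single libraries left out, limma called 0 to 1360 genes higher and 0 to 1744 lower, 0 to 3 members, and 0 to 5 members were higher at an unadjusted p under 0.05. The same fits gave -0.16 to 0.25 for CASP8 and -0.074 to 0.22 for CASP9. The cause was not tested. With all 4 libraries, every alternative called 0 genes, and the adjusted p of BIRC2 ran from 0.149 to 0.399. The replicate block, whose numbers the labels do not tie to a shared culture (correlation of same-numbered deviations 0.0421), called 0 genes. It left 3 members higher at an unadjusted limma p under 0.05, against 4 without it. Over all 12033 tested genes, 952 were higher at that p with the block, against 1061 without it.

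Of 27 pathway genes followed this way, none passed the limma threshold in any alternative with all 4 libraries. Those whose direction reversed ran, with single libraries left out, from -0.085 to 0.38 (FAS), -0.061 to 0.49 (CYLD), -0.027 to 0.14 (TRAF2), -0.12 to 0.043 (TRAF3) and -0.32 to 0.14 (DFFA). Tests planned only for deposited raw counts were not run, and the reads recovered from FPKM were tested with voom. Depth limits CASP10, which rests on 37 reads or fewer per library.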

Other observations

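The genes around the members were set by distance alone, within 250 kb. Beside BIRC3 and BIRC2, 2 other genes were at the tested level. TMEM123 was at 59.3 and 22.1 FPKM in shFOXM1 1 and 2, against 74.3 and 76.6 FPKM in shControl 1 and 2, below both shControl libraries. YAP1 was at 3.82 and 22.9 FPKM in shFOXM1 1 and 2, against 9.11 and 8.31 FPKM in shControl 1 and 2, so the shFOXM1 libraries lay on opposite sides. Around CFLAR, CASP10 and CASP8, 10 other genes were tested, of which 5 were above and 2 below both shControl libraries. Over all tested genes these shares were 27.3% and 25.9%. Of the 5, RNU7-45P and AC007283.2 lie within CFLAR and had at most 8 reads in any library. AC007283.2 reached 1 FPKM only in the shFOXM1 libraries. The filter on low values thus fixed its place above shControl in advance. FAM126B, named after its values were seen, was at 3.61 and 3.9 FPKM in shFOXM1 1 and 2, against 2.36 and 1.93 FPKM in shControl 1 and 2 (log2 fold change 0.60, limma adjusted p = 0.191). None of the genes beside these members passed the limma test over all genes.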
